A study of Mus musculus with 568 samples.

Results

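Polycomb repressive complex 2 (PRC2) is the enzyme complex that methylates lysine 27 of histone H3, the mark of silenced developmental genes and, in female cells, of the inactive X chromosome. Its core joins the catalytic subunit EZH2 or its paralog EZH1 with the scaffold SUZ12 and with EED, the subunit that reads the mark. Accessory subunits define a pair of variant complexes: the Polycomb-like proteins PHF1, MTF2 and PHF19 belong to PRC2.1, and JARID2 and AEBP2 belong to PRC2.2. The transcripts of these 9 genes (Ezh2, Ezh1, Eed, Suz12, Jarid2, Mtf2, Aebp2, Phf1 and Phf19) were chosen by name and followed through an in vitro female mouse germ line. All 9 were among the 16335 genes of the bulk table and among the 15718 genes of the single-cell table, and all 9 passed the bulk filter of a mean normalized count above 10, which 16281 genes passed.

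The cells were XRep, female embryonic stem cells (ESCs) of an F2 line from crossed M. m. musculus (mus) and M. m. castaneus (cas) mice. The study told alleles apart by SNPs of 129S1/SvImJ and CAST/EiJ. A truncated Tsix on the mus X chromosome forces that X to be the inactivated one. The mus X carries a GFP reporter (XGFP) and the cas X a tdTomato reporter, and every group carries doxycycline-inducible Prdm1, Prdm14 and Tfap2c transgenes. Bulk RNA came from 4 libraries each of ESCs, of epiblast-like cells (EpiLCs), and of XGFP+ and XGFP- primordial germ cell-like cells (PGCLCs), sorted as SSEA1+ CD61+ cells on day 5 of PGCLC induction. The study gave doxycycline during PGCLC induction and lists none for ESC or EpiLC culture. Cell state and the induced transgenes therefore cannot be told apart where PGCLCs are compared with ESCs or EpiLCs. Single cells came from reconstituted ovaries (rOvaries), in which PGCLCs were cultured for 6 days with somatic cells of fetal gonads. XGFP+ constitutive cells descended from XGFP+ PGCLCs, and XGFPhigh, XGFPintermediate and XGFPlow cells from XGFP- PGCLCs.

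The depth of the bulk libraries on genes was 29.8 to 46.5 in units of 1e6 reads. Marker genes followed the labels: 9 of 9 naive pluripotency markers were lower and 5 of 5 formative epiblast markers higher in EpiLCs than in ESCs, and 7 of 7 early germ cell markers were higher in either PGCLC population than in EpiLCs. Those germ cell markers include the transgenes Prdm1 and Tfap2c and the gene of CD61, on which PGCLCs were sorted. For these genes the rise is no independent check. The study describes the 4 libraries of a group both as biological replicates and as clones with technical replicates, and the labels number them only, so p-values measure the spread between these libraries and may be too small. Groups were compared with limma-trend on log2(normalized count + 1) across all tested genes, and a gene is called here at a Benjamini-Hochberg false discovery rate (FDR) below 0.001. In bulk samples, fewer cells expressing a gene and less RNA per cell cannot be told apart.

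Promoters of 4 members are shown because these genes carry the patterns described below. Phf19 had the largest difference of any member. Suz12 and Mtf2 were the most abundant members per length in bulk ESCs and PGCLCs. Phf1, a Polycomb-like paralog of Phf19 and Mtf2, was not called in any comparison. Each sequence is the 250 bases before the RefSeq transcription start on GRCm38.p6, written 5′ to 3′ on the gene's strand, at chr2:34913977-34914226 (minus strand) for Phf19, chr17:26932877-26933126 (plus) for Phf1, chr5:108065424-108065673 (plus) for Mtf2 and chr11:79992856-79993105 (plus) for Suz12. Capitals mark matches on either strand to GCGGGAA, a core of E2F sites, and to GCCNNNGGC, the AP-2 core.
Phf19: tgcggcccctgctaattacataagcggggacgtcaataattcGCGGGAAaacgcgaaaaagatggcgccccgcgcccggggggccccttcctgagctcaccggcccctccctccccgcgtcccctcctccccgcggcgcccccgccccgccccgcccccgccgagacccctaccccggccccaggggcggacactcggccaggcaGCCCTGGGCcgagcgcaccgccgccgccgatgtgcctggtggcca
Phf1: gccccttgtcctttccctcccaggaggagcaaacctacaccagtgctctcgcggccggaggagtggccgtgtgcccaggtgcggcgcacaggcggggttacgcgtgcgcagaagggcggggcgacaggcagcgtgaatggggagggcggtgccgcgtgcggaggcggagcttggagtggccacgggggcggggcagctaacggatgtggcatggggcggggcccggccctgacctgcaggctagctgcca
Mtf2: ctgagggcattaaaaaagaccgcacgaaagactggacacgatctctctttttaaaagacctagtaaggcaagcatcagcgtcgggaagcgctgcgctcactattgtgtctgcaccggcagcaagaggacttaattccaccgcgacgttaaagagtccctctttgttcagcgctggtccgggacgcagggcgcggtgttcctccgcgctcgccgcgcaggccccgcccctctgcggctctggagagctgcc
Suz12: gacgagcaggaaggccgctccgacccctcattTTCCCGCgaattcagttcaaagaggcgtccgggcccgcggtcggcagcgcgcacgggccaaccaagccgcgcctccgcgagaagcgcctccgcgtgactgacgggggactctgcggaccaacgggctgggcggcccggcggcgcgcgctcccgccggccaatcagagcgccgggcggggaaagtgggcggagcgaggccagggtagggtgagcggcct

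Each gene was searched in 1 window only, while Jarid2 and Mtf2 had 2 RefSeq promoters each and Aebp2 had 3. The GCGGGAA letters occurred in the Phf19 and Suz12 windows and in none of the windows of the other 7 members. They occurred in 3.82% of 32851 RefSeq windows of the same length. GCCNNNGGC occurred in the Phf19 window among the 9 and in 13.7% of all windows. CCAAT, the NF-Y core, had 3 matches before Ezh2, 1 before Suz12 and 1 before Jarid2, and 33.8% of all windows held at least 1. The NRF1 motif had 1 match each before Ezh1 and Ezh2, against 3.74% of all windows, and CCGGAAG, an ETS core, had none among the 9, against 6.91%. A match is a description of letters and no evidence of binding. The Phf19 window was 75.2% G and C and the Suz12 window 73.6%, above the median of 52.4% over all windows, and they held 31 and 37 CG dinucleotides, where the median was 6.

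In the bulk libraries, levels of different genes were compared per kb of exon. In ESCs Mtf2 (2983 ± 134.8 normalized counts per kb, SD, n = 4) and Suz12 (2698 ± 88.7) were the most abundant members, ahead of Eed (1492 ± 96.2) and Jarid2 (948 ± 55.5). Ezh2 stood at 465 ± 16.2, Aebp2 at 235 ± 44.4, Ezh1 at 195 ± 13.5, Phf1 at 64.6 ± 10.6 and Phf19 at 50.1 ± 10.3. In EpiLCs the same scale gave Mtf2 1401 ± 69.8, Jarid2 1315 ± 135.9 and Suz12 1274 ± 54.8, which lay closer to each other than the SD of Jarid2, while Phf19 was again last at 44.1 ± 11.5. In XGFP+ PGCLCs Suz12 led at 3101 ± 483 and Phf19 had reached 1077 ± 110.6 per kb, the level of Eed (1077 ± 28.5). In XGFP- PGCLCs Phf19 stood at 1283 ± 80.8 per kb, above Eed at 910 ± 23.5, and Phf1 was last at 62.5 ± 3.97.

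**Figure D1:**
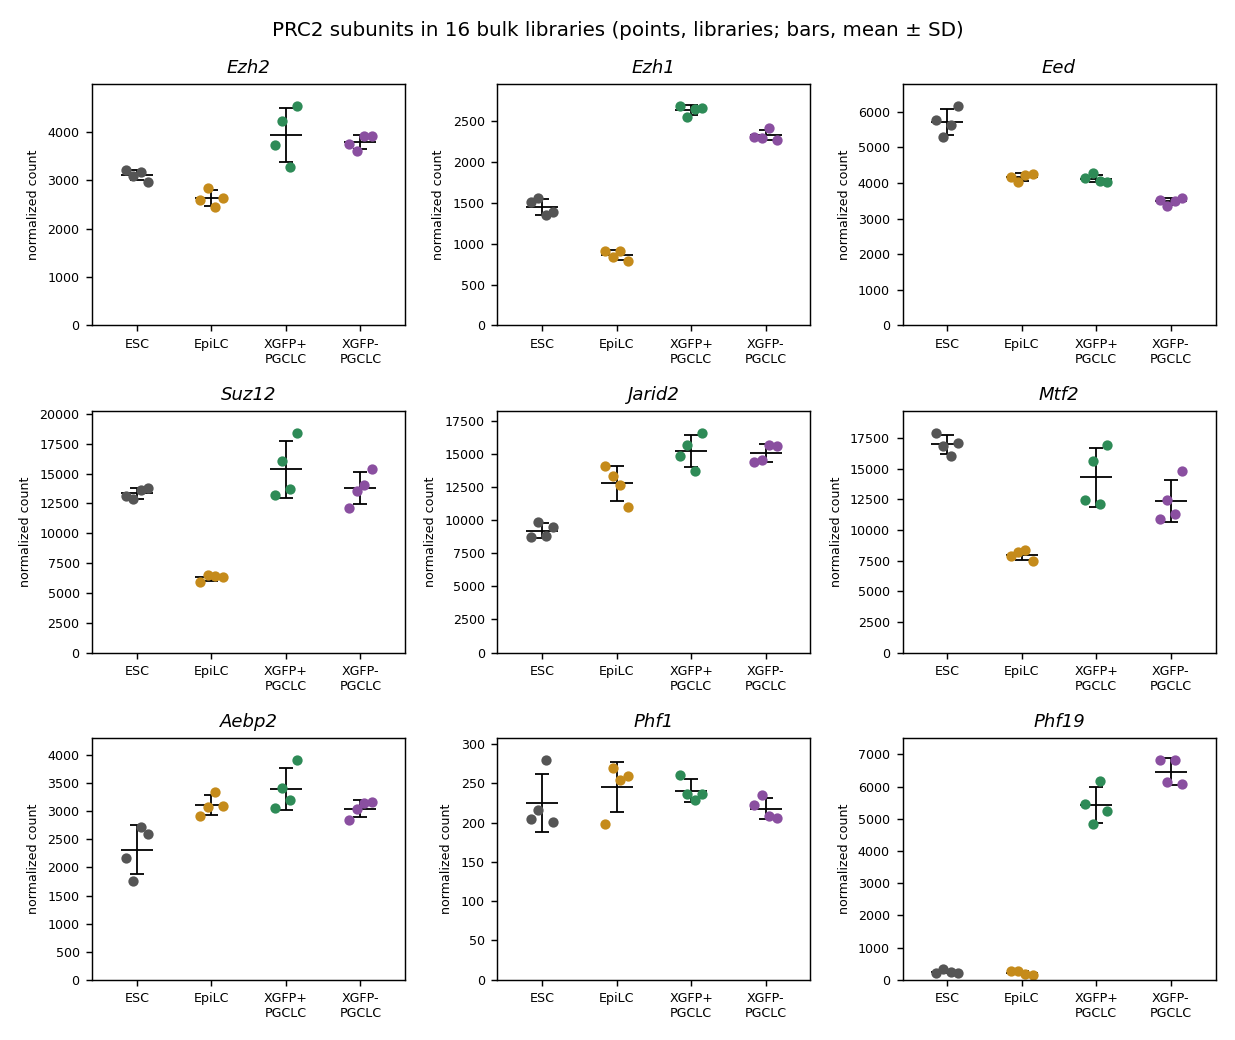
Normalized counts (y axis, from 0) of the 9 PRC2 genes in ESCs, EpiLCs and XGFP+ and XGFP- PGCLCs (x axis). Points are libraries, 4 per group, and bars give the mean ± SD. Phf19 sits at 159 to 330 in all ESC and EpiLC libraries and at 4829 to 6825 in all PGCLC libraries, and Suz12 and Mtf2 are lowest in EpiLCs.

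Phf19, which reads methylated lysine 36 of histone H3 through its Tudor domain, had the largest fold changes of the 9 members, between PGCLCs and both earlier states. Its normalized counts were 221, 330.0, 235 and 225 in ESCs and 281, 260.1, 188 and 159 in EpiLCs. In PGCLCs they were 5472, 4829, 6163 and 5253 in the XGFP+ libraries and 6825, 6146, 6811 and 6083 in the XGFP- libraries. Every PGCLC library lay far above every ESC and EpiLC library, and ESCs and EpiLCs overlapped. XGFP+ PGCLCs were 24.9-fold above EpiLCs (log2 fold change 4.64, SE 0.153, FDR 1.22e-14) and 21.6-fold above ESCs (FDR 3.37e-14). XGFP- PGCLCs were 29.7-fold above EpiLCs (FDR 3.99e-15) and 25.8-fold above ESCs (FDR 5.95e-15). The PGCLC comparisons share their EpiLC and ESC libraries and are not independent of each other. The ESC and EpiLC levels were not called different (log2 fold change -0.20, FDR 0.25).

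Of the other Polycomb-like genes, Mtf2 was called lower in EpiLCs than in ESCs and PGCLCs, and Phf1 was called in no comparison. Mtf2, the main PRC2.1 targeting subunit of ESCs, had normalized counts of 17946, 16840.4, 16087 and 17119 in ESCs and of 7872, 8226.5, 8362 and 7473 in EpiLCs, with no overlap. It was 2.13-fold lower in EpiLCs (log2 fold change -1.09, SE 0.1, FDR 1.77e-08). In PGCLCs it was at 12464, 15678, 12121 and 16962 in XGFP+ and 10935, 12484, 11329.9 and 14788 in XGFP- libraries, above every EpiLC library in each case. The differences from EpiLCs were 1.77-fold (FDR 5.43e-07) and 1.54-fold (FDR 1.54e-05). XGFP- PGCLCs were below ESCs (log2 fold change -0.47, FDR 0.000368), a call lost in 6 of 26 alternative analyses: after quantile normalization (FDR 0.0211) and in the fits without XGFP- library 1, 2 or 3 or ESC library 1 or 4 (FDR 0.00105 to 0.00209). Phf1 lay between 198 and 279.7 in all 16 libraries, and its 95% interval for XGFP+ PGCLCs against EpiLCs ran from -0.27 to 0.24 on the log2 scale.

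Of the core members, Suz12 and Ezh1 were called lower in EpiLCs than in ESCs and higher in PGCLCs than in EpiLCs. Suz12, without which the complex does not assemble, had normalized counts of 13104.5, 12852, 13608 and 13800.1 in ESCs and of 5914.5, 6539.5, 6410.4 and 6342 in EpiLCs. Its counts were 13202, 16013, 13716.5 and 18410.5 in XGFP+ PGCLCs, and 12153, 13498, 14017 and 15363.5 in XGFP- PGCLCs. EpiLCs formed a separate low group and the other 3 groups overlapped. Suz12 was 2.12-fold lower in EpiLCs than in ESCs (log2 fold change -1.08, SE 0.0864, FDR 2.41e-09). It was 2.41-fold higher in XGFP+ PGCLCs (FDR 1.92e-10) and 2.18-fold higher in XGFP- PGCLCs (FDR 8.57e-10) than in EpiLCs. Neither PGCLC group was called different from ESCs (FDR 0.0595 and 0.685).

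Ezh1, the catalytic paralog known from slowly dividing cells, had a low in EpiLCs and a high in PGCLCs. Its normalized counts were 1504, 1562, 1350.1 and 1382 in ESCs and 906, 836, 905 and 790.0 in EpiLCs. They were 2686, 2548, 2648 and 2659 in XGFP+ PGCLCs, and 2309, 2296, 2411 and 2272 in XGFP- PGCLCs, so that no group overlapped another. Against EpiLCs, Ezh1 was 3.07-fold higher in XGFP+ PGCLCs (log2 fold change 1.62, SE 0.0599, FDR 5.82e-14) and 2.7-fold higher in XGFP- PGCLCs (FDR 1.66e-13). It was 1.69-fold lower in EpiLCs than in ESCs (FDR 2.3e-09), and both PGCLC groups exceeded ESCs, by 1.82-fold (FDR 4.09e-10) and 1.6-fold (FDR 6.06e-09).

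Ezh2, the catalytic subunit of dividing cells, was called higher in PGCLCs than in EpiLCs. Its normalized counts were 3198, 3092, 3172 and 2957 in ESCs, and 2579.8, 2843, 2444 and 2640.5 in EpiLCs. In PGCLCs they were 3721, 4212, 3274 and 4537 (XGFP+) and 3740.2, 3594, 3903 and 3908 (XGFP-). All PGCLC libraries exceeded all EpiLC and all ESC libraries, but only the difference from EpiLCs was called, at 1.49-fold for XGFP+ (log2 fold change 0.57, SE 0.0787, FDR 2.58e-06) and 1.44-fold for XGFP- PGCLCs (FDR 6.22e-06). Against ESCs the FDR was 0.00105 and 0.003, and 5 and 3 of 26 alternatives crossed the threshold. EpiLCs against ESCs gave a log2 fold change of -0.24 (FDR 0.011).

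Eed, whose binding to the mark stimulates the enzyme, was highest in ESCs and lowest in XGFP- PGCLCs. Its normalized counts were 5759.8, 5278.5, 5631 and 6169.8 in ESCs and 4179.8, 4024, 4217 and 4245 in EpiLCs. They were 4148, 4268, 4052 and 4028.5 in XGFP+ PGCLCs, and 3513, 3359, 3490.3 and 3572 in XGFP- PGCLCs. ESCs lay above all other libraries, XGFP- PGCLCs below all others, and EpiLCs overlapped XGFP+ PGCLCs. Eed was 1.37-fold lower in EpiLCs than in ESCs (log2 fold change -0.45, SE 0.0491, FDR 1.64e-07), and 1.64-fold lower in XGFP- PGCLCs than in ESCs (FDR 1.93e-10).

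Both PRC2.2 subunits had their lowest mean in ESCs. Jarid2, which binds nucleosomes and recruits the complex, had normalized counts of 8707.5, 9839.6, 8816 and 9473 in ESCs, and 14115, 13310.4, 12675 and 11005 in EpiLCs. In PGCLCs they were 14832.5, 15690.3, 13724 and 16585 (XGFP+) and 14356, 14560.5, 15652 and 15623 (XGFP-). The ESC libraries lay below all others. Jarid2 was 1.38-fold higher in EpiLCs than in ESCs (log2 fold change 0.47, SE 0.0728, FDR 1.51e-05), and 1.65-fold (FDR 6.47e-08) and 1.63-fold (FDR 5.23e-08) higher in XGFP+ and XGFP- PGCLCs than in ESCs. PGCLCs were not called different from EpiLCs (FDR 0.0042 and 0.00573), except after quantile normalization (FDR 0.000138 and 2.06e-05). Aebp2, a zinc finger subunit that stabilizes the complex, ranged from 1766 to 2722 in ESCs, from 2914 to 3340.3 in EpiLCs, from 3061.5 to 3913 in XGFP+ and from 2838 to 3156 in XGFP- PGCLCs. Its only call was XGFP+ PGCLCs above ESCs (1.48-fold, FDR 0.000107), which was lost when those groups were fitted alone (FDR 0.00161). EpiLCs against ESCs missed the threshold (1.36-fold, FDR 0.00118) and passed it in 6 of 26 alternatives.

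**Figure D2:**
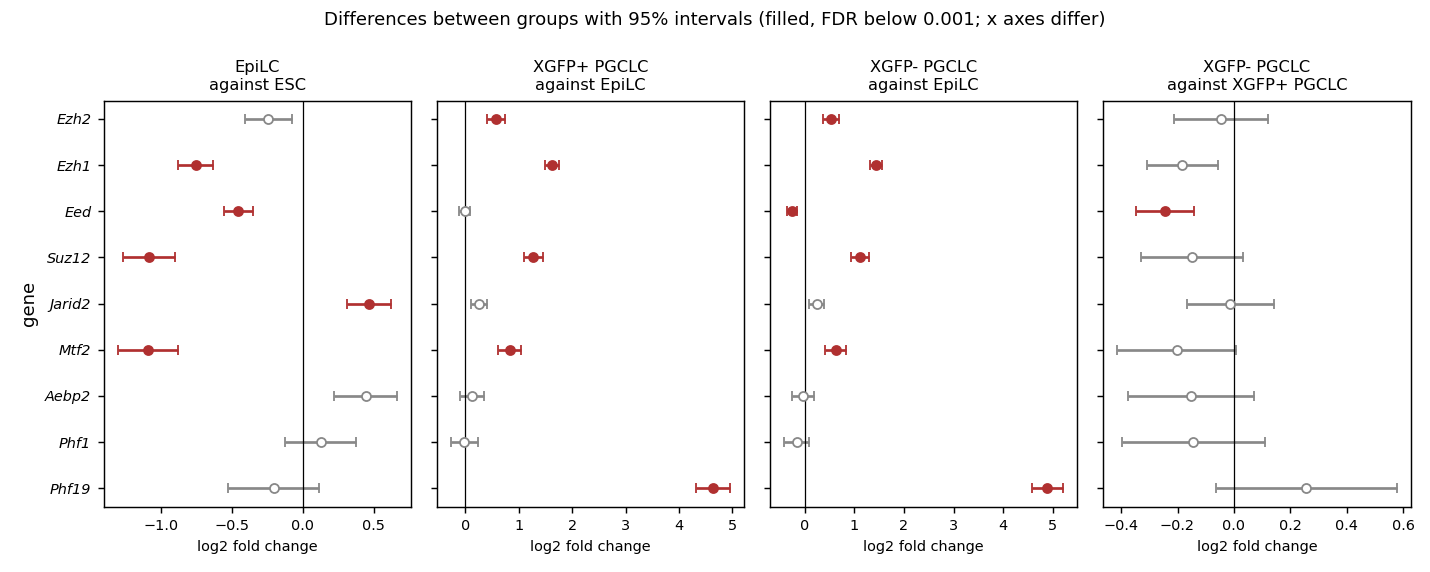
Log2 fold changes (x axis, scale differing by panel) of the 9 PRC2 genes (y axis) in 4 comparisons of bulk groups, with 95% intervals from limma. Filled red points are called at FDR below 0.001 and open points are not. In EpiLCs against ESCs 4 genes are called lower and Jarid2 higher, in PGCLCs against EpiLCs Phf19 is farthest to the right, and in XGFP- against XGFP+ PGCLCs only Eed is called.

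As counts, EpiLCs against ESCs gave 1 of 9 members higher (Jarid2), where 24.9% of 16281 genes were higher, and 4 of 9 lower (Ezh1, Eed, Suz12 and Mtf2), where 22.9% were lower; in either direction it was 5 of 9 against 47.8%. The members' median log2 fold change was -0.24 and that of all genes 0.01. XGFP+ PGCLCs against EpiLCs gave 5 of 9 higher (Ezh2, Ezh1, Suz12, Mtf2 and Phf19; 27.8% of all genes) and 0 lower by limma (also 0 at an unadjusted p below 0.05 and 0 with edgeR and DESeq2; 29.5% of all genes; 57.3% in either direction), with a median of 0.57. XGFP- PGCLCs against EpiLCs gave the same 5 genes higher (29.9%) and Eed lower (31.9%), 6 of 9 against 61.9% in either direction, with a median of 0.53. Against ESCs, XGFP+ PGCLCs had 4 higher (Ezh1, Jarid2, Aebp2 and Phf19; 25% of genes) and Eed lower (24.9%), 5 of 9 against 49.9% in either direction. By the same count, XGFP- PGCLCs had 3 higher (Ezh1, Jarid2 and Phf19; 29.8%) and 2 lower (Eed and Mtf2; 29.6%), 5 of 9 against 59.4%. The shares are set beside each other as a description. Of 20 proliferation genes, 12 were lower and 5 higher in each PGCLC group than in EpiLCs, and the part of proliferation in the members' differences was not tested.

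XGFP- and XGFP+ PGCLCs were sorted by the reporter on the mus X chromosome, and 1 of the 9 members was called between them. Eed was the gene called: 3359 to 3572 normalized counts in XGFP- PGCLCs against 4028.5 to 4268 in XGFP+ PGCLCs, 1.18-fold lower (log2 fold change -0.24, SE 0.0491, FDR 0.000489). This is 1 of 9 members lower and 0 of 9 higher by limma (also 0 at an unadjusted p below 0.05 and 0 with edgeR and DESeq2), where 12.5% of all genes were lower and 11.3% higher (23.8% in either direction). The Eed call was lost (FDR 0.00103 to 0.00277) in the fits without XGFP+ library 1, 2 or 3 or without XGFP- library 1, 2 or 3, with a log2 fold change of -0.25 to -0.23. Ezh1 was lower by 0.18 on the log2 scale (log2 fold change -0.18, FDR 0.0174). In the fit without pairing, the 95% interval of the log2 difference ran from -0.21 to 0.12 for Ezh2, from -0.33 to 0.03 for Suz12, from -0.17 to 0.14 for Jarid2, from -0.41 to 0.01 for Mtf2, from -0.37 to 0.07 for Aebp2, from -0.40 to 0.11 for Phf1 and from -0.07 to 0.58 for Phf19. Same-numbered libraries of these groups deviated together, and with the replicate number as a block and these 8 libraries alone, 2 members were called, Eed and Phf19 (log2 fold change 0.26, 95% interval 0.16 to 0.35, FDR 0.000332; higher in XGFP- PGCLCs in 4 of 4 pairs). More genes of all were called as well: the main fit called 1833 higher and 2040 lower, and this blocked fit 2755 and 2477. In that fit the intervals of some members that were not called lay below 0: -0.28 to -0.09 for Ezh1 (FDR 0.00314), -0.30 to -0.11 for Mtf2 (FDR 0.00152), -0.26 to -0.04 for Aebp2 (FDR 0.0206) and -0.26 to -0.04 for Suz12 (FDR 0.0213). Ezh1, Mtf2, Aebp2 and Phf1 were lower in XGFP- PGCLCs in 4 of 4 pairs and Suz12 in 3, and the blocked intervals of Ezh2, Jarid2 and Phf1 included 0. The share of all genes that differed in the same direction in every pair was not counted. The pair counts therefore show nothing particular to PRC2.

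The catalytic paralogs were also compared with each other, as the log2 ratio of Ezh1 to Ezh2 per kb of exon in each library. The ratio was 0.422, 0.454, 0.382 and 0.42 in ESCs and 0.315, 0.264, 0.332 and 0.269 in EpiLCs. It was 0.648, 0.543, 0.726 and 0.526 in XGFP+ PGCLCs, and 0.554, 0.574, 0.555 and 0.522 in XGFP- PGCLCs. Ezh2 exceeded Ezh1 in all 16 libraries, EpiLCs had the lowest ratios and PGCLCs the highest. On the log2 scale EpiLCs were 0.51 below ESCs, XGFP+ PGCLCs 1.05 above EpiLCs and 0.53 above ESCs, and XGFP- PGCLCs 0.91 above EpiLCs and 0.40 above ESCs, each with an exact two-sided permutation p of 0.0286, the smallest that 4 against 4 libraries allow, and an adjusted p of 0.0343 over the 6 pairs of groups. XGFP- and XGFP+ PGCLCs differed by -0.14 (exact permutation p = 0.371).

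The balance of accessory subunits was measured as summed Mtf2, Phf1 and Phf19 over summed Jarid2 and Aebp2, each per kb. The ratio was 2.91, 2.59, 2.49 and 2.51 in ESCs, and 0.854, 0.935, 0.96 and 0.98 in EpiLCs. In PGCLCs it was 1.82, 1.93, 1.97 and 1.94 (XGFP+) and 1.89, 1.92, 1.76 and 2.0 (XGFP-). ESCs were highest, EpiLCs lowest and the PGCLC groups lay between and overlapped. EpiLCs were 1.49 below ESCs on the log2 scale, XGFP+ and XGFP- PGCLCs were 1.04 and 1.02 above EpiLCs and 0.45 and 0.47 below ESCs, each with an exact permutation p of 0.0286 (adjusted p = 0.0343). The PGCLC groups differed by -0.02 (exact permutation p = 0.686). The make-up of the numerator was not the same: per kb, Phf19 was 50.1 against Mtf2 at 2983 in ESCs, and 1283 against 2173 in XGFP- PGCLCs.

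**Figure D3:**
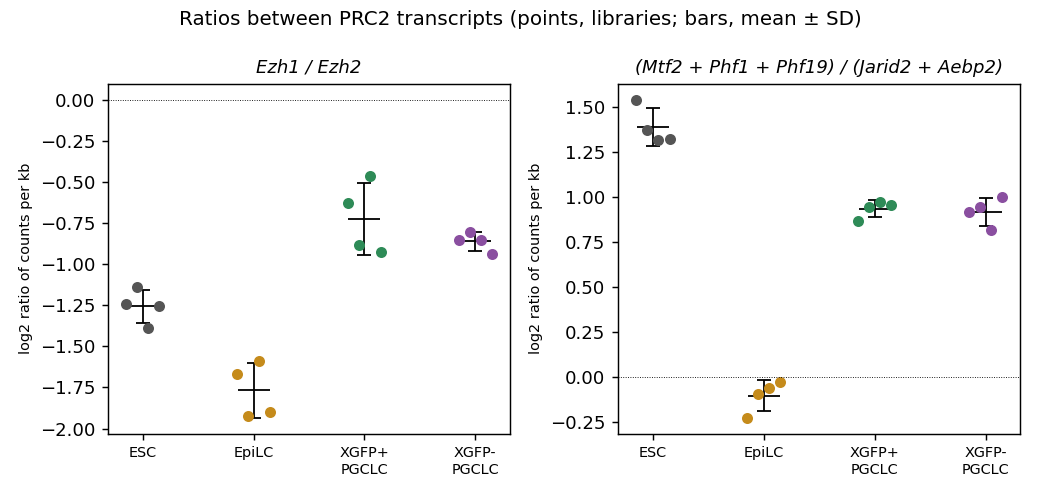
Log2 ratios of normalized counts per kb of exon (y axis) in the 4 bulk groups (x axis), Ezh1 over Ezh2 on the left and PRC2.1 over PRC2.2 accessory transcripts on the right. Points are libraries and bars the mean ± SD. EpiLCs are lowest in both panels, ESCs are highest on the right, and the PGCLC groups overlap in both.

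Among other PRC2 components and partners, Epop, Ezhip and Rbbp7 were lower in XGFP- than in XGFP+ PGCLCs. Of 8 such genes tested, these 3 were called lower and 0 higher, where 12.5% of all genes were lower and 11.3% higher, with a median log2 fold change of -0.18 against 0.01 for all genes. Epop, a PRC2.1 partner that links the complex to elongin, had normalized counts of 2087, 1866, 1240.5 and 1173 in XGFP+ PGCLCs, and 323, 288.6, 341 and 332 in XGFP- PGCLCs, 4.8-fold lower (FDR 6.6e-08). It was at 6736 to 11889 in ESCs and 1840.1 to 3172 in EpiLCs, so that it was 29.1-fold lower in XGFP- PGCLCs than in ESCs (FDR 1.59e-13). Rbbp7, an X-linked histone chaperone of the core, ranged from 22047 to 23578 in ESCs, from 16039 to 18096 in EpiLCs, from 13509.8 to 14882 in XGFP+ and from 9928.5 to 11628 in XGFP- PGCLCs. It was 1.37-fold lower in XGFP- than in XGFP+ PGCLCs (FDR 3.32e-06).

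Ezhip, an X-linked germline gene whose protein inhibits EZH2, was at 73.7 to 125 normalized counts in XGFP+ and 22.7 to 32.1 in XGFP- PGCLCs, 3.37-fold lower (FDR 1.39e-06), at the low level of ESCs (22.5 to 32.6). Its allelic ratio, the share of mus reads among allelic reads, was 0.494 ± 0.0692 (SD, n = 4) in XGFP+ and 0.0733 ± 0.0726 in XGFP- PGCLCs, with ranges of 0.404 to 0.573 and 0 to 0.138. Kdm6a, the X-linked demethylase that removes the mark, had ratios of 0.543 ± 0.0333 and 0.485 ± 0.0358 in these groups and normalized counts that were not called different (FDR 0.242). Read numbers behind the ratios are unknown. Kdm6b, the autosomal demethylase, was at 141.7 to 206 in XGFP+ and 221 to 307 in XGFP- PGCLCs, 1.6-fold higher (FDR 0.000624).

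Of 14 canonical PRC1 genes, the complex that binds the mark, 2 were called higher in XGFP- than in XGFP+ PGCLCs and 0 lower, near the 11.3% of all genes that were higher, so the count says nothing particular about PRC1. They were Ring1, a ubiquitin ligase subunit (690 ± 45.7 against 384 ± 50.0, FDR 2.27e-06), and Cbx2, a chromodomain subunit (2525 ± 85.6 against 1919 ± 241, FDR 0.000578). Of 38 genes known as Polycomb targets in ESCs, mostly developmental regulators, 17 were in the table and 16 tested. Of these, 1 (Gata2) was higher and 3 (Hoxd13, En2 and Cdkn2a) lower in XGFP- PGCLCs, where 11.3% of all genes were higher and 12.5% lower. Gata2, a transcription factor gene, was at 1239 ± 205 in XGFP- and 478 ± 100.7 in XGFP+ PGCLCs (FDR 0.000501). The genes called lower had low counts. Hoxd13 was near 0, at 0 to 2.03 in XGFP- and 3.83 to 8.96 in XGFP+ libraries. En2 was at 4.33 to 20.2 against 39.4 to 70.1, and Cdkn2a at 16.5 to 57.7 against 82.5 to 103.9.

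Genes with courses most like those of the members were sought among 11702 genes with a mean above 100, by Pearson r of log2 values over the 16 libraries, as a description in which all points share the 4 groups. For Ezh2 these were Eif5b (0.985), Lcor (0.971), itself a PRC2.1 partner, and Nfya (0.961). For Ezh1 they were Optn (0.995), Ero1lb (0.992) and Rhox6 (0.992), for Eed Pole4 (0.984), Tmem132d (0.982) and Col11a1 (0.981), and for Suz12 Syap1 (0.99), Zbtb44 (0.986) and Gnpnat1 (0.986). Phf19, added after its values were seen, was most like Rab27a (0.996), Igf1 (0.995) and Snx29 (0.995).

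In rOvaries 462 of 518 wells were kept, of which 19% were XGFP+ constitutive (88 cells), 27.1% XGFPhigh (125 cells), 27.7% XGFPintermediate and 26.2% XGFPlow cells, besides 24 ESCs. Each well held 1 cell and its own library, and the labels name no culture, so a population is 1 sample and no test was made. Levels are summed reads in CPM, scaled to 1e6 reads, with 95% Poisson intervals, which cover counting error only, since reads carry no molecular identifiers. XGFP+ constitutive cells were all sequenced in lane 2, at a median of 354149 reads, while the other rOvary cells had medians of 636623 to 645474 and only 14 to 16 kept cells per population in lane 2. The population and the lane can be told apart only over those few cells. Single ESCs were not labelled as cells of lane 2 or lane 3, so ESCs and rOvary cells could not be compared within a lane. In single ESCs Suz12 was at 50.3 CPM, below Mtf2 (370), Eed (356) and Ezh2 (197). Their Ezh1 to Ezh2 ratio per kb was 0.0766 and their PRC2.1 to PRC2.2 ratio 11.6, where bulk ESCs averaged 0.419 and 2.62. Ranks of members and ratios between them thus differed between bulk and single-cell libraries. Those given above hold for the bulk libraries only. Summed gonadal somatic markers were 49.3, 11.9, 675 and 153 CPM in the 4 populations in the order above, and their part in the differences was not tested.

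Suz12 and Mtf2 had their highest summed levels in XGFP+ constitutive cells. Suz12 was at 132.7 CPM (129 to 136.8) in XGFP+ constitutive, 92.03 (89.97 to 94.1) in XGFPhigh, 59.5 (57.9 to 61.2) in XGFPintermediate and 67.9 (66.1 to 69.7) in XGFPlow cells. Within lane 2 these were 132.7, 69.03, 79.2 and 57.3, so that XGFP+ constitutive cells were again highest and the order of the others changed. Mtf2 was at 564 (555 to 572), 468 (463 to 473), 249 (245 to 252) and 289 (285 to 293) CPM. In lane 2 it was at 564, 443, 315 and 353, the same order. The median over cells was 482 CPM in XGFP+ constitutive and 228 CPM in XGFPintermediate cells for Mtf2.

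Ezh1 was lowest in XGFP+ constitutive cells over all kept cells, at 17.1 (15.7 to 18.6), 24.4 (23.4 to 25.5), 31.2 (29.9995 to 32.4) and 34.98 (33.7 to 36.3) CPM. The medians over cells were 9.47, 11.3, 11.999 and 10.2 CPM and the shares of cells with a read 69.3%, 72%, 64.8% and 58.7%, neither of which followed the order of the summed levels. In lane 2 XGFPlow cells were at 14.1 CPM, below XGFP+ constitutive cells, where lane 3 gave 38.1. Ezh2 was at 257 (251 to 263), 237 (234 to 241), 188 (185 to 191) and 186 (183 to 189) CPM, and a read was found in 96.9% to 100% of cells of each population. Eed was at 194, 220, 165 and 185 CPM and Jarid2 at 132.5, 117.1, 98.8 and 96.4. Aebp2 ranged from 16.96 to 27.5 CPM and Phf1 from 1.27 to 5.45 CPM, with a read in at most 24.8% of cells.

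Phf19 was at 63.6 (60.8 to 66.4) CPM in XGFP+ constitutive, 77.99 (76.1 to 79.9) in XGFPhigh, 28.7 (27.5 to 29.8) in XGFPintermediate and 52.5 (50.9 to 54.1) in XGFPlow cells, and at 2.61 (2.03 to 3.31) in single ESCs. In lane 2 the rOvary values were 63.6, 95.7, 24.5 and 54.1, the same order. A read was found in 77.3%, 76%, 51.6% and 52.9% of the cells, and in 29.2% of ESCs, which had the highest median depth of 1103780 reads.

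Of the 8 members with a mean above 10 CPM, XGFPintermediate over XGFP+ constitutive cells gave 4 lower by more than 1.5-fold (Suz12, Mtf2, Aebp2 and Phf19), where 12.6% of 8716 genes were, and 1 higher (Ezh1), where 21.9% were. XGFPlow over XGFP+ constitutive cells gave 2 lower (Suz12 and Mtf2; 10.0%) and 1 higher (Ezh1; 19.1%). XGFPhigh over XGFP+ constitutive cells gave 0 in either direction (7.06% lower and 3.69% higher), and XGFPhigh over XGFPlow cells gave 1 higher (Mtf2; 8.56%) and 0 lower (21.8%). These members changed within lane 2, which held 14 to 16 cells of each population other than XGFP+ constitutive. There XGFPintermediate over XGFP+ constitutive cells gave 6 lower, Ezh2 and Jarid2 besides the 4 above (31.7% of genes), and 0 higher (16%), and XGFPlow over XGFP+ constitutive cells gave 3 lower (Suz12, Mtf2 and Jarid2; 30.1%) and 0 higher (18.5%). XGFPhigh over XGFP+ constitutive cells gave Suz12 lower (39%) and Phf19 higher (9.39%), at a ratio of 1.505, and XGFPhigh over XGFPlow cells gave Ezh1 and Phf19 higher (16.6%), not Mtf2, and 0 lower (30.9%). Lower by more than 1.5-fold in both sets of cells were thus Suz12, Mtf2, Aebp2 and Phf19 in XGFPintermediate and Suz12 and Mtf2 in XGFPlow cells. These are ratios of single samples with no replicate check, and they describe these cells only.

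**Figure D4:**
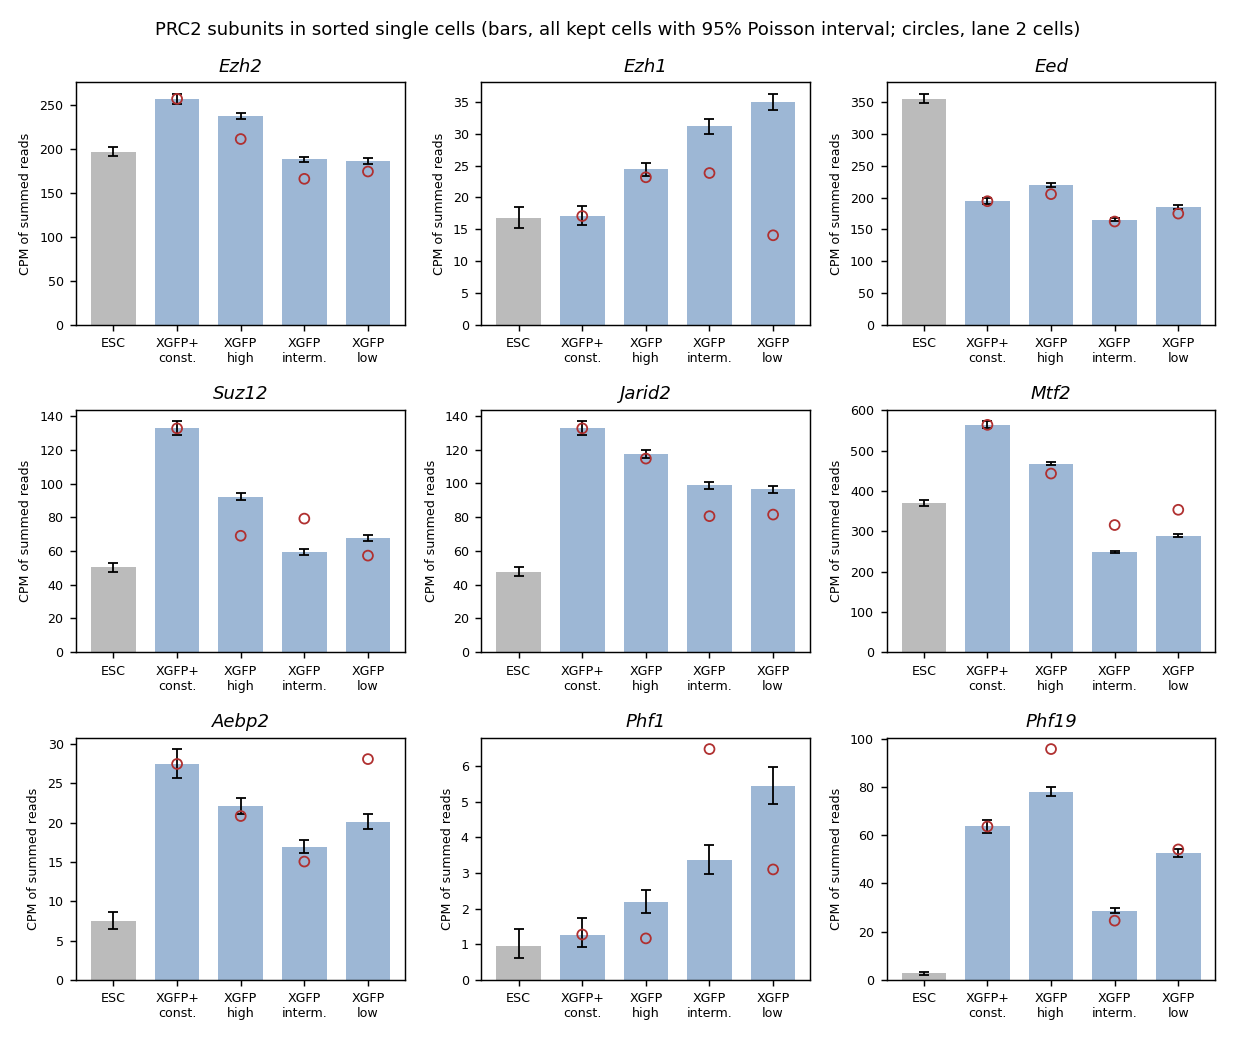
Summed reads in CPM (y axis, from 0) of the 9 PRC2 genes in single ESCs and 4 sorted rOvary populations (x axis; const., constitutive; interm., intermediate). Bars are all kept cells with 95% Poisson intervals and open circles the cells of lane 2. Mtf2 and Suz12 are highest in XGFP+ constitutive cells, and Phf19 is near 0 in ESCs and lowest among rOvary cells in XGFPintermediate cells.

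The 86.8% of kept rOvary cells with Dazl, a germ cell gene, above 1 in natural-log units were grouped without the 9 members into 5 clusters, which held 33.4%, 26.9%, 14.5% (58 cells), 13.5% (54 cells) and 11.7% (47 cells) of them. Cluster 4 had 3 of the meiotic markers among its 10 leading genes by fold (Sycp2 and Sycp3, synaptonemal complex genes, and Tex101) and 14590 CPM of summed meiotic markers, against 772.5 to 5183 CPM elsewhere, and is called meiotic germ cell-like. The others carry numbers only. Of 76 XGFP+ constitutive cells, 60 were in cluster 1 and 14 in cluster 5, and of the XGFPhigh cells 70 and 32. Of the XGFPintermediate cells, 55, 25 and 34 were in clusters 2, 3 and 4, and of 91 XGFPlow cells 47, 29 and 12.

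Phf19 was lowest in the meiotic germ cell-like cluster. It was at 3.96 CPM (3.32 to 4.68) there, with a read in 11.1% of 54 cells at a median depth of 619548 reads, against 28.2 CPM in cluster 2, 56.5 in cluster 5, 77.6 in cluster 1 and 114.7 in cluster 3, where 52.8% to 96.6% of cells had a read. Single ESCs were at 2.61 CPM. Within XGFPintermediate cells, Phf19 was at 4.14 CPM in 34 cells of cluster 4, 18.98 in 55 cells of cluster 2 and 92.01 in 25 cells of cluster 3. Within XGFPlow cells it was at 6.22 CPM in 12, 27.6 in 47 and 129 in 29 cells of these clusters. In the 7 XGFPhigh cells of cluster 4 no Phf19 read was found, against 62.5 CPM in 32 cells of cluster 5 and 87.5 CPM in 70 cells of cluster 1. Of the cluster 4 cells, only 4 of 34 XGFPintermediate and 2 of 12 XGFPlow cells had a read. The absence of reads in 7 cells therefore does not show a lower level in XGFPhigh than in other cells of cluster 4. Cluster 4 was singled out after its values were seen.

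Mtf2 was also lowest in cluster 4, at 170.0 CPM (166 to 174), against 248 to 648 CPM in the other clusters. Eed was also lowest there, at 143.9 (139.9 to 148) CPM against 182 to 263. Suz12 was at 56.4 (53.9 to 58.98) CPM, level with cluster 2 at 56.7 (54.96 to 58.4). Ezh2 and Jarid2 were at 220 (215 to 225) and 124.4 (120.7 to 128.2) CPM there, within the range over the other clusters of 185 to 264 for Ezh2 and 79.4 to 169 for Jarid2. Ezh1 was at 37.1 (35.1 to 39.2) CPM, level with cluster 3 at 36.1 (34.2 to 38.2) and above cluster 5 at 10.2 (9.06 to 11.5).

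**Figure D5:**
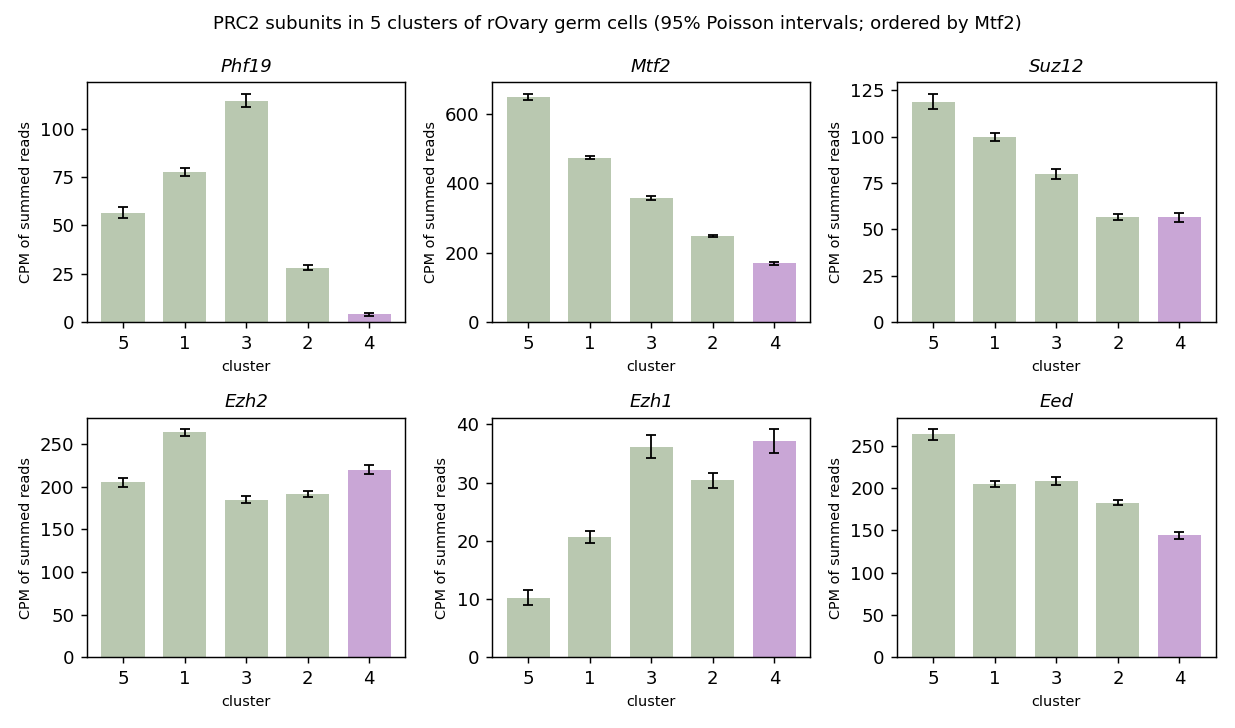
Summed reads in CPM (y axis, from 0) of 6 PRC2 genes in 5 clusters of rOvary germ cells (x axis), with 95% Poisson intervals. Cluster 4, in purple, is the meiotic germ cell-like cluster, and clusters are ordered by Mtf2. Phf19 is at 3.96 in cluster 4 and Ezh2 at 220.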

How the data were processed

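The bulk table held normalized signal: per the labels, the authors aligned stranded paired-end reads with STAR to an SNP-masked mm10, counted genes with HTSeq 0.6.1 and divided the counts by DESeq2 1.16 size factors. All values were whole reads within 0.01 after division by a library's step, and those reads were used in the count tests. The deposited single-cell counts were reads per gene of 1-cell wells, without molecular identifiers. The deposited allelic ratio is the fraction of mus reads, at unknown depth, and no member had one.

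The main test was limma 3.58.1 (R 4.3.3, trend) on log2(value + 1), 16 libraries, genes with a mean above 10, Benjamini-Hochberg adjustment. Ratios of members were compared by exact two-sided permutation tests. Wells were left out below 10000 reads or 4000 detected genes, or where mitochondrial genes took over 5% of reads. Single cells were summed per population and clustered with Seurat 5.3.0, on 1999 variable genes at resolution 0.8, with no doublet caller, since wells held 1 cell. Alternatives were other pseudocounts, filters, quantile normalization, edgeR 4.0.16, DESeq2 1.42.0, the compared groups alone, the replicate number as a block, and leaving out each library. Same-numbered XGFP+ and XGFP- PGCLC libraries deviated together (r 0.135 to 0.307). They were therefore also treated as pairs, though no label says what they share. Scripts were tested on simulated data. Members, lists and tests were chosen with earlier results of these data known. Besides the 9 members, genes named are those of the other PRC2 and demethylase lists, list genes called between PGCLC groups, and the 3 genes most like Ezh2, Ezh1, Eed and Suz12.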

Additional observations from a re-analysis of the deposited data

Results flagged for a closer look

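Phf19 in ESCs had 1 library apart from the others: replicate 2 was at 330.0 normalized counts, while the other 3 lay between 221.1 and 234.5, a gap of 0.877 of the group's range. Over 44 groups of 4 libraries examined in this way, chance gives such a gap in about 1 of 20.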

How the results depend on the processing

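Over 26 alternatives per comparison, the number of members called ran from 5 to 6 for EpiLCs against ESCs, 5 to 6 for XGFP+ and 6 to 7 for XGFP- PGCLCs against EpiLCs, and 4 to 6 for each PGCLC group against ESCs. Between the PGCLC groups, 1 member was called, 2 with the compared groups alone and the replicate block, and 0 to 1 on leaving out a library. The number of all genes higher was 1833, and it was 1992 with the block over all 16 libraries, 1878 with the compared groups alone and 2755 with both. The number lower was 2040, and in the same order 2178, 1759 and 2477. The block over all libraries changed other members only for Aebp2 against ESCs (FDR 0.000338 in EpiLCs and 0.000469 in XGFP- PGCLCs). Ezh2 in XGFP- PGCLCs against ESCs was called with the groups alone, both without the block (FDR 0.000289) and with it (FDR 0.000674). In the other pairs of groups r between same-numbered libraries was weaker for most, at -0.0105 to 0.16. EpiLC libraries each matched the same-numbered ESC library best (r 0.0409 to 0.11), and in the remaining pairs only some libraries did so.

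Differences near 0 changed sign: Eed in XGFP+ PGCLCs against EpiLCs was 0.02 with edgeR, Phf1 in that comparison 0.067 after quantile normalization, 0.011 with edgeR and -0.118 to 0.029 on leaving out a library, and Jarid2 between the PGCLC groups 0.067 after quantile normalization and -0.061 to 0.03 on leaving out a library. Leaving out a library also gave -0.056 to 0.01 for Aebp2 in XGFP- PGCLCs against EpiLCs, -0.015 to 0.098 for Suz12 and -0.086 to 0.072 for Phf1 in XGFP- PGCLCs against ESCs, -0.131 to 0.026 for Ezh2 between the PGCLC groups, and -0.043 to 0.019 for their PRC2.1 to PRC2.2 ratio. The causes were not tested. With a library left out, 3 against 4 cannot go below an exact p of 0.0571. The planned allelic comparison of Jarid2 was not run, and its allelic ratio was not analysed here.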
